A study of Mus musculus with 23 samples.

Results

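The transplanted myeloma line t-VK12653, which carries MYC as its engineered lesion, was compared with control plasma cells in 7 of the 23 libraries of the series. The libraries were chosen by their labels, 4 of t-VK12653 and 3 of Control, and all 24063 gene symbols of the count tables were used. Cells of t-VK12653 have the genotype Vκ*MYC and were taken from recipient mice given donor cells. Replicates 1 and 3 came from bone marrow and replicates 2 and 4 from spleen, and values per library are given in that order. Control libraries have the genotype IgG1-Cre and came from bone marrow, so Cre is listed for Control and not for t-VK12653. Another 16 libraries of 4 VQ lines, numbered D1, D2, D4 and D5 (Vκ*MYC; NrasLSL Q61R/+; IgG1-Cre) were in the same fit, and serve below as a second reference. Every library was sorted as CD138+B220-, and the labels call the cells MM cells in all groups, Control included. No age is given. t-VK12653 is 1 donor line, and the names of its tables hold 2 recipient numbers, so its 4 libraries measure the spread within 1 line. Nothing says which Control libraries came from separate mice.

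In the Vκ*MYC mouse, MYC is placed under regulatory elements of the immunoglobulin kappa gene behind a stop codon that somatic hypermutation can revert, so that the transgene switches on in germinal centre B cells and their progeny. MYC is a transcription factor that binds DNA with its partner MAX, often at the E-box sequence, and is known for raising ribosome production, nucleotide synthesis and entry into the cell cycle. Plasma cells are antibody factories that have left the cell cycle and rest on the factors IRF4, BLIMP-1 (Prdm1) and XBP1. Myeloma is their malignancy.

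The t-VK12653 libraries held 3287991 to 5776168 counts over 13511 to 14494 detected genes, and the Control libraries 2685579 to 3790134 counts over 14458 to 14781 genes. The ribosomal precursor Rn45s took 21.2% to 27.3% of counts in t-VK12653 and 16.4% to 17.3% in Control. Levels are CPM, counts scaled to a common library size with TMM factors, and fold changes are log2 values of t-VK12653 over Control with a standard error (SE), from edgeR's quasi-likelihood test with Benjamini-Hochberg adjustment over all genes tested. A gene was called at an adjusted p under 0.05. Where a group had 0 reads, the fold is bounded with 3 reads over the group, which is 0.181 CPM in t-VK12653 and 0.305 CPM in Control.

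Markers of the sort and of other cells were read first. Sdc1, which encodes CD138, was at 497, 435, 983 and 821 CPM in t-VK12653, against 928, 627 and 895 CPM in Control, and the groups overlapped. Markers of other blood cells were high in the Control libraries. The summed level of 18 neutrophil markers was 7.33 to 153.7 CPM in t-VK12653, against 3286 to 9270 CPM in Control, and all 18 were called lower. In t-VK12653 the neutrophil sum was larger in the bone marrow libraries (153.7 and 89.6 CPM) than in the spleen libraries (7.33 and 10.7 CPM). Of 13 tested monocyte and macrophage markers 12 were lower, with sums of 88.8 to 174.7 CPM in t-VK12653 and 433 to 1639 CPM in Control. The exception was Cd68, a lysosomal membrane protein, at 116 ± 30.6 CPM in t-VK12653 and 28.4 ± 9.86 CPM in Control (SD, n = 4 and 3). Erythroid markers summed to 68.4 to 128 CPM in t-VK12653 and 239 to 1250 CPM in Control, with 13 of 14 lower, and T and NK cell markers to 6.03 to 7.74 and 109 to 171 CPM, with 9 of 11 lower. Control replicate 2 had the highest neutrophil, monocyte, erythroid and T and NK cell sums of the 3. Rag1, which recombines antigen receptor genes in B cell precursors, had 0 reads in t-VK12653, against 58.4, 29.7 and 2.36 CPM in Control. B cell precursor markers, Rag1 and Cd93 among them, summed to 0.339 to 1.32 CPM in t-VK12653 and 346 to 472 CPM in Control, with 7 of 7 tested lower. Cd93 is also carried by plasma cells, and without it the precursor sums were 0.339 to 1.32 CPM in t-VK12653, against 224, 125 and 18.9 CPM in Control. Megakaryocyte, mast cell and basophil markers summed to 4.75 to 8.09 and 61.7 to 134 CPM (3 of 4 lower), dendritic cell markers to 302 to 326 and 492 to 557 CPM (3 of 7 lower), and endothelial and stromal markers to 9.97 to 13.3 and 69.4 to 112 CPM (5 of 6 lower), in t-VK12653 and Control. Col1a1, a collagen of stromal cells, was the higher one, and was not called without Control replicate 2 or 3 or any 1 t-VK12653 library (adjusted p = 0.0586 to 0.159), nor in 5 other alternatives (0.0521 to 0.101). Defining markers of other cells, among them Cd3d, Cd3g, Cd14, Cdh5 and Vpreb1, had 0 reads in t-VK12653. Xist, the RNA of the inactive X chromosome, was at 1350 CPM in Control replicate 1, against 3.41 and 3.94 CPM in the other 2 and 1.88 to 3.73 CPM in t-VK12653. The Y-linked gene Ddx3y had 2 reads in t-VK12653, against 41.8, 113 and 122 CPM in Control, so Control replicate 1 held both transcripts.

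**Figure D1:**
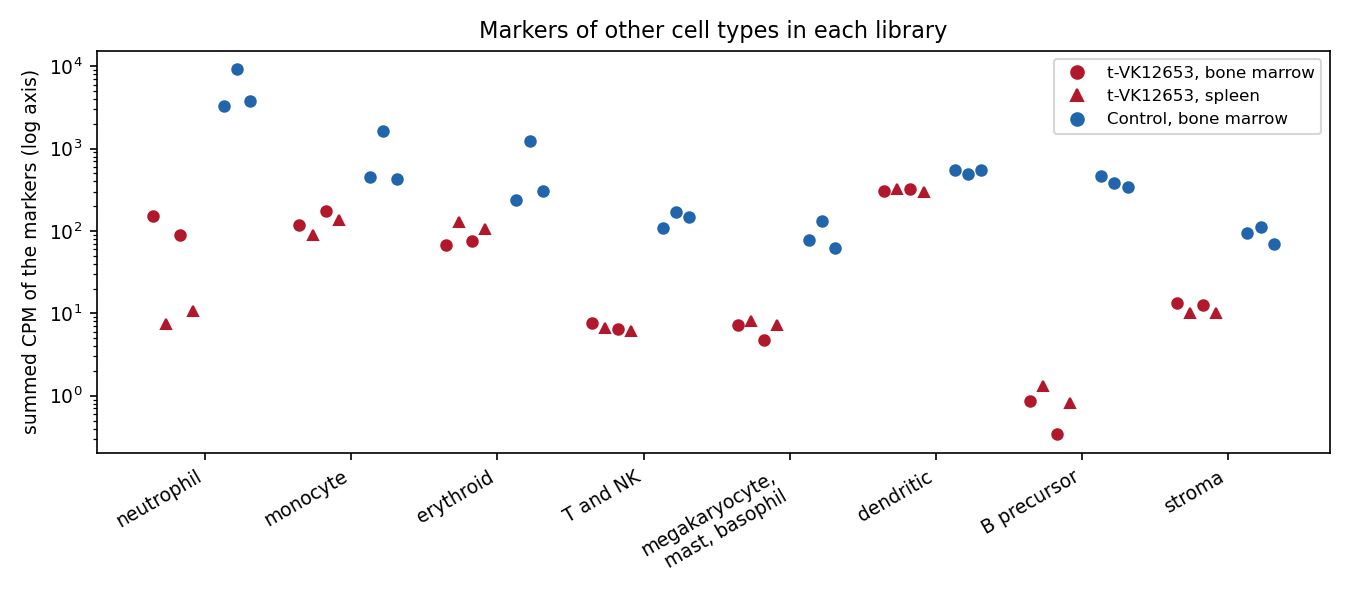
Summed TMM-scaled CPM (log axis) of the markers of 8 other cell types in each library, with t-VK12653 (red, circles bone marrow, triangles spleen) left of Control (blue). The neutrophil markers sum to 7.33 to 153.7 CPM in t-VK12653 and to 3286 to 9270 CPM in Control, and the B precursor sums include Cd93.

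Of 12867 genes tested, 7320 were called (56.9%), 3700 higher in t-VK12653 (28.8%) and 3620 lower (28.1%), with a median log2 fold change of 0.01 over all genes. These shares are the background for every count of list members below. Tested on length-scaled TPM values with limma, 2764 genes were higher and 4885 lower, and on that scale the median of all genes moved by -0.266 against the count fit; the higher share of calls was 36.1% there and 50.5% in the count fit. Groups did not overlap for 3661 genes in the higher direction (28.5%) and for 3570 in the lower (27.7%). With well over 1 gene in 2 called, a gene list is read here by whether its members went one way and by how far.

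Myc was by far the more changed of the 2 genes of the engineered genotypes. It was at 6327, 6902, 6518 and 6420 CPM in t-VK12653, against 41.8, 58.0 and 29.4 CPM in Control, with a log2 fold change of 7.22 and an SE of 0.205 (adjusted p = 1.38e-16). The groups were far apart and the 4 libraries of the line lay within a narrow range, above the 524 to 3527 CPM of the 16 VQ libraries. The labels do not state how transgene reads were assigned to the mouse gene. Nras, a RAS GTPase that is not mutated by design in t-VK12653, was at 43.5 ± 5.27 CPM in t-VK12653 and 32.3 ± 0.819 CPM in Control (SD, n = 4 and 3), with a log2 fold change of 0.45 and an SE of 0.136 (adjusted p = 0.00755). It was not called in bone marrow alone, in spleen against Control, in sums per recipient number or on the TPM scale (adjusted p = 0.0591 to 0.41).

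Other members of the MYC network moved less. Of 12 network genes tested, Myc included, 6 were higher and 2 lower, with a median log2 fold change of 0.64. That median rests on single libraries: it was 0.13 without Control replicate 3, 0.96 without Control replicate 1 and 0.21 to 0.28 without t-VK12653 replicate 1, 2 or 3, as 11 to 13 members were then tested. Mnt, a repressor that competes for MAX, was at 149 ± 16.9 CPM in t-VK12653 and 57.3 ± 4.32 CPM in Control, and Mga, another MAX partner, at 398 ± 21.7 and 202 ± 21.6 CPM. Mxi1, of the MXD repressor family, differed by 1.01 ± 0.128 in log2 units (SE; adjusted p = 8.06e-07). Max itself was lower by a small amount, at 38.6 ± 6.34 CPM in t-VK12653 and 48.8 ± 8.93 CPM in Control, and the groups overlapped (log2 fold change -0.40, SE 0.158, adjusted p = 0.0363). The call of Max was lost without Control replicate 2 (adjusted p = 0.188), without t-VK12653 replicate 3 (0.144) or without t-VK12653 replicate 4 (0.0814), and in 5 other alternatives, bone marrow alone and sums per recipient number among them (0.0867 to 0.292). Against the mean of the VQ lines, 8 of the 12 network genes, Myc among them, were higher and the other 4 were not called. Among all tested genes 31.6% were higher and 29.6% lower in that comparison.

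**Figure D2:**
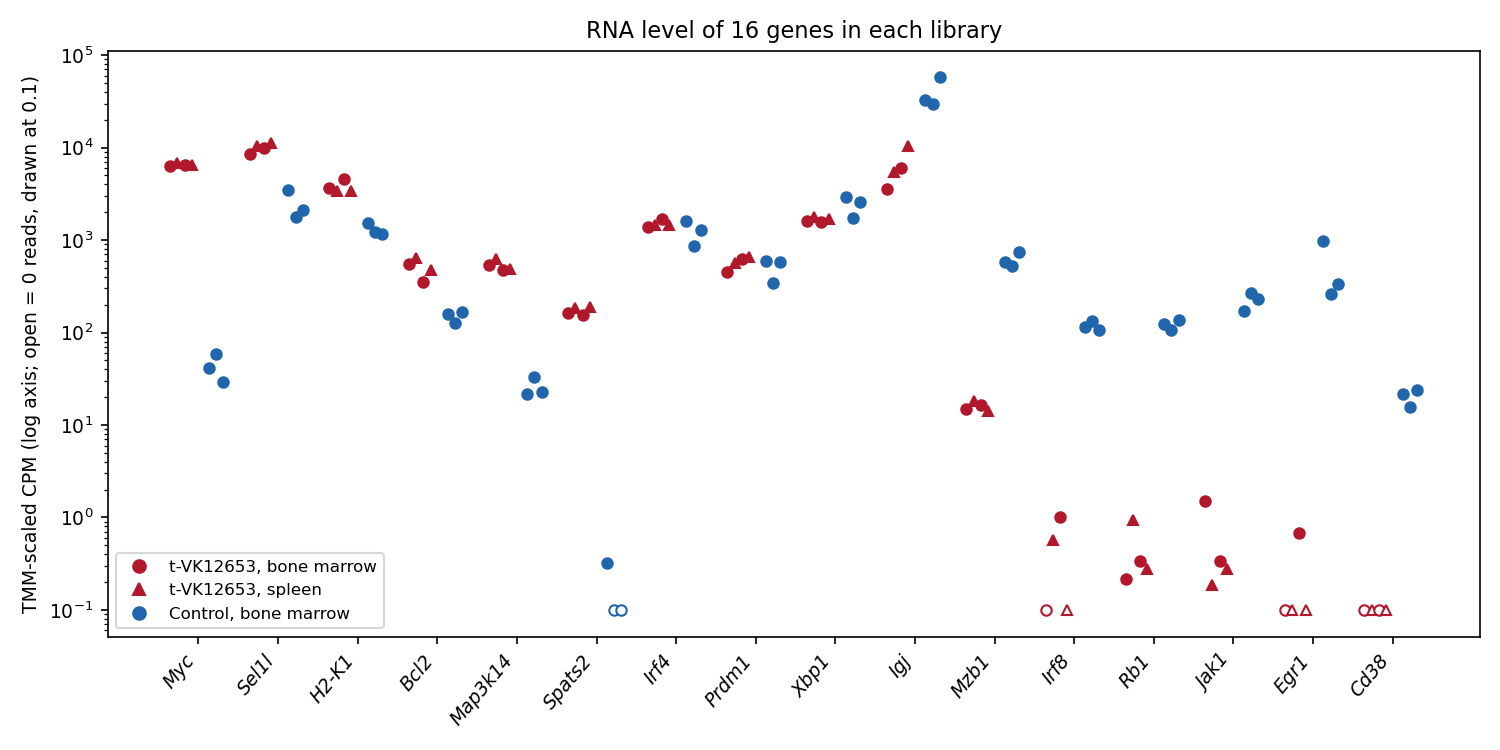
TMM-scaled CPM (log axis) of 16 genes in each of the 7 libraries, with t-VK12653 (red, circles bone marrow, triangles spleen) left of Control (blue). Open symbols stand for 0 reads and are drawn at 0.1. Myc lies at 6327 to 6902 CPM in t-VK12653 and at 29.4 to 58.0 CPM in Control, while Irf4 and Prdm1 overlap.

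The 12 genes with the highest fold changes had at most 3 reads over the Control libraries. Gpr158, an orphan receptor of the nervous system, was at 152, 169, 145 and 176 CPM in t-VK12653 with 0 reads in Control, at least 526-fold higher. Bche, the serum cholinesterase, was at 85.6 ± 10.5 CPM in t-VK12653 (SD, n = 4) with 0 Control reads, at least 280-fold higher. Lin28b, an RNA-binding protein of fetal and tumour cells that blocks let-7 processing, was at 47.7, 50.8, 56.0 and 61.7 CPM in t-VK12653 with 0 reads in Control, at least 177-fold higher. Spats2, an RNA-associated protein known from sperm development, was at 172 ± 16.2 CPM in t-VK12653 and had 1 read in Control, a ratio of 1701 with an exact 95% counting interval of 305 to 67222. Such intervals and bounds cover counting error alone, as PCR copies were not marked with molecular identifiers. Sis, the intestinal sucrase-isomaltase, was at 153, 211, 365 and 463 CPM in t-VK12653, against 1 read in Control. Igsf10, at 272 ± 10.6 CPM in t-VK12653, had 3 reads in Control, and Slc7a15, Nxf3, Slc47a1, Kcnc2 and Lhfpl4 had 0, at 27.2 to 41.3 CPM on average in t-VK12653. Rfx6, a transcription factor of pancreatic islets, was at 148 ± 10.6 CPM in t-VK12653 with 1 read in Control.

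Several lymphocyte genes were among the lowest fold changes. Of the 12 lowest genes, 10 had 0 reads in t-VK12653, among them Serpina3g, Btla, Faim3, Akap2, Ctla4, Cdk14, Egr3, Fam134b and Gng12. Serpina3g, a protease inhibitor of activated lymphocytes, was at 151, 96.2 and 104 CPM in Control, so that t-VK12653 was at least 646-fold lower. St6gal1, which adds sialic acid to N-glycans and makes the ligand of CD22, was at 0.43, 0.376, 0.678 and 0.274 CPM in t-VK12653, against 895, 799 and 1515 CPM in Control (log2 fold change -10.89, SE 0.761, adjusted p = 1.1e-08). Every VQ library kept St6gal1 at 11.7 CPM or more. Egr1, an immediate early transcription factor, had 2 reads in t-VK12653, against 981, 258 and 332 CPM in Control, and 27 to 1543 CPM in the VQ libraries.

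Ribosome genes rose together. Of 41 cytosolic ribosomal protein genes 36 were higher and 0 lower (median log2 fold change 1.39, against 0.01 over all genes). Of 30 nucleolar factors of ribosome assembly 28 were higher and 0 lower (median 1.0), and of 27 translation factors 19 were higher and 0 lower (median 0.69). In the lower direction edgeR's test left 0, 0 and 1 members of these lists at an unadjusted p under 0.05, and DESeq2 called 0, 0 and 3. Ncl, the nucleolar protein nucleolin, was at 2023, 2810, 2026 and 2637 CPM in t-VK12653, against 793, 793 and 747 CPM in Control (log2 fold change 1.56, SE 0.131, adjusted p = 1.91e-09). Every t-VK12653 library was above every Control library for it, as for 27 of the 30 nucleolar factors. Rpl13a, of the large ribosomal subunit, was at 4127 ± 652 CPM in t-VK12653 and 788 ± 28.8 CPM in Control, and Rps3, of the small subunit, at 1960 ± 342 and 434 ± 14.7 CPM. Eef1b2, an elongation factor subunit, was higher by 2.18 (SE 0.128, adjusted p = 7.9e-12). Reads of ribosomal protein genes and of their processed pseudogenes cannot be told apart in such counts. Myc was higher in t-VK12653 than in every VQ library, and 26 of the 30 nucleolar factors were lower than the VQ mean and 1 was higher, with 1900 to 5086 CPM of Ncl in the VQ libraries.

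Promoter letters are shown for nucleolar and antigen presentation genes because MYC and interferon factors bind known motifs near starts. The sequences are the 250 bases before the start of the gene from RefSeq, build GRCm38.p6, in lower case, with the motif in capitals. Nop2, a methyltransferase of ribosomal RNA, was at 72.7, 76.5, 62.8 and 76.5 CPM in t-VK12653, against 24.3, 29.7 and 24.7 CPM in Control, and holds the E-box CACGTG once (chr6:125131633-125131882, plus strand).
Nop2: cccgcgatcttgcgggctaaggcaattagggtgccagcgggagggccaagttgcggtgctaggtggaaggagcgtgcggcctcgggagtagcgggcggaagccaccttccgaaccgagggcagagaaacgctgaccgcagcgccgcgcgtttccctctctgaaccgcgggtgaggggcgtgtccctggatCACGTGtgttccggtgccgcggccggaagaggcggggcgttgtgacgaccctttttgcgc
CACGTG reads the same on both strands. Within 250 bases before to 50 after a start it was found in 6 of the 24 nucleolar genes with a promoter entry (25%), in 6 of 24 nucleotide and polyamine genes (25%), in 4 of 31 ribosomal protein genes (12.9%), in 12% of 9578 tested genes and in 7.15% of all 32851 windows. The match is a description of letters, and binding was not measured.

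Nucleotide and one-carbon enzymes followed the ribosome genes. In purine, pyrimidine and polyamine synthesis 18 of 28 were higher and 4 lower (median 0.52), and in serine and one-carbon metabolism 9 of 11 were higher (median 0.86) and the other 2 were not called, with 4 higher in bone marrow alone. Shmt1, the cytosolic enzyme that passes a carbon from serine to folate, was at 44.7, 54.0, 35.6 and 48.3 CPM in t-VK12653, against 5.51, 3.75 and 6.83 CPM in Control (log2 fold change 2.97, SE 0.229, adjusted p = 5.02e-10). Its mitochondrial partner Shmt2 was at 324 ± 89.7 CPM in t-VK12653 and 145 ± 21.5 CPM in Control. Gart and Paics, of purine synthesis, were higher by 1.25 and 1.20 on the log2 scale. The 4 lower genes were Odc1, Sms, Dhodh and Prps2, of which Dhodh was not called in bone marrow alone, in sums per recipient number or in spleen against Control (adjusted p = 0.0558 to 0.0942). Odc1, the first enzyme of polyamine synthesis and a textbook MYC target, was at 67.1, 55.1, 147 and 52.6 CPM in t-VK12653, against 293, 115 and 128 CPM in Control (log2 fold change -1.08, SE 0.335, adjusted p = 0.0113), with overlapping groups. Without Control replicate 1 its log2 fold change was -0.53 (adjusted p = 0.13), and in bone marrow alone -0.79 (0.194). Prps2, which makes the ribose donor of nucleotides, had 0 reads in t-VK12653, against 26.3, 18.1 and 33.4 CPM in Control, at least 143-fold lower. Slc1a5, the glutamine transporter, was at 401 ± 23.3 CPM in t-VK12653 and 129 ± 5.42 CPM in Control, while Slc3a2, the heavy chain of the LAT1 transporter, was at 823, 903, 434 and 300 CPM against 2004, 1170 and 1566 CPM. Among 23 ATF4 targets and amino acid transporters 8 were higher and 6 lower, beside 28.8% and 28.1% among all genes. Chac1 and Ddit3, stress genes downstream of ATF4, were lower by 2.89 and 2.20.

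Respiration genes were mostly higher and glycolysis genes went both ways. Of 36 nuclear genes of oxidative phosphorylation 26 were higher and 2 lower (median 0.61). Cox6a1, a cytochrome oxidase subunit, was at 172 ± 43.0 CPM in t-VK12653 and 37.6 ± 2.69 CPM in Control, and Ndufa1, of complex I, at 163 ± 15.5 and 37.2 ± 4.91 CPM. Uqcrc1, of complex III, was lower by 0.53 (SE 0.0958, adjusted p = 6.24e-05). Among 21 glycolysis genes 10 were higher and 7 lower. Ldha and Pkm, at the end of the pathway, were higher by 1.33 and 1.31, whereas Pfkl, the committing enzyme, was at 22 ± 6.27 CPM in t-VK12653 and 70.4 ± 3.01 CPM in Control. The glucose transporter Slc2a1 was lower by 0.71 (SE 0.207, adjusted p = 0.00589), and was not called in bone marrow alone (0.146). In cholesterol synthesis 6 of 24 were higher and 4 lower, beside 28.8% and 28.1% among all genes. For tRNA synthetases 8 of 20 were higher and 3 lower, and 4 and 4 without Control replicate 2, or 4 and 3 without t-VK12653 replicate 1.

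**Figure D3:**
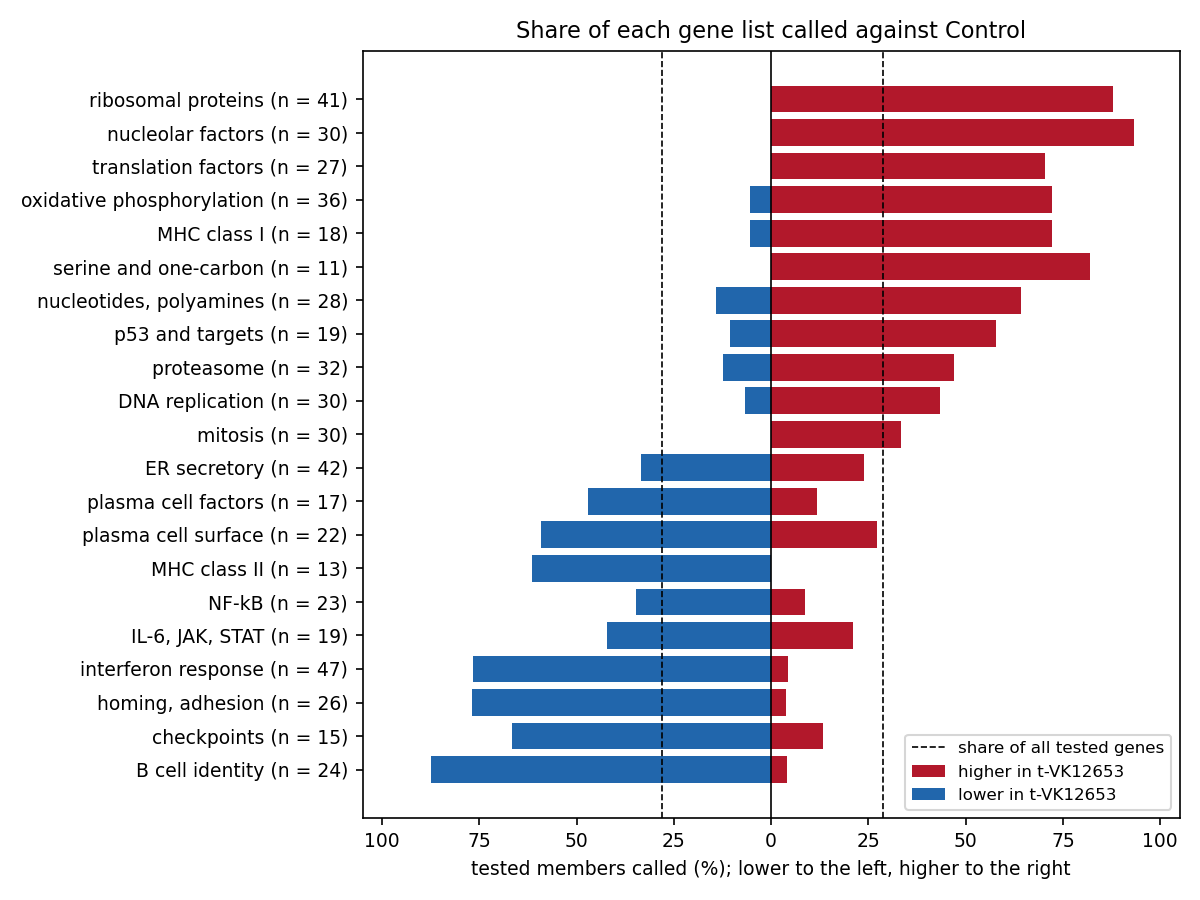
Share of the tested members of 21 gene lists that were called higher (red, right) or lower (blue, left) in t-VK12653 than in Control. Dashed lines mark the shares over all tested genes, 28.8% higher and 28.1% lower, and the ribosomal protein and nucleolar lists lie at one end and B cell identity at the other.

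Cell cycle genes were higher in part. Among 30 DNA replication genes 13 were higher and 2 lower (median 0.51), and among 30 mitosis genes 10 were higher, a share near the 28.8% of all genes, and the other 20 were not called (median 0.45). Mki67, the proliferation antigen Ki-67, was at 1637, 1578, 1971 and 1819 CPM in t-VK12653, against 778, 1336 and 748 CPM in Control (log2 fold change 0.79, SE 0.198, adjusted p = 0.00223). Control replicate 2, which had the highest neutrophil, monocyte, erythroid and T and NK cell sums, was the highest Control library for Mki67 and Foxm1. Without it 21 of 30 mitosis genes and 19 of 30 replication genes were higher (medians 0.92 and 0.90), and in bone marrow alone 8 replication genes were; the part of other cells in these levels was not tested. Foxm1, a transcription factor of mitotic genes, was at 86.2 ± 9.33 CPM in t-VK12653 and 24.8 ± 11.2 CPM in Control, and Mcm6, of the replicative helicase, at 370 ± 32.6 and 146 ± 30.8 CPM. Against the VQ mean 28 of the 30 mitosis genes were lower and 2 not called, and 19 of the 30 replication genes were lower and 4 higher.

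G1 regulators changed in both directions. Of 21 G1 cyclins, kinases and inhibitors 10 were higher and 6 lower. Ccne2, a cyclin E, was at 45.4, 47.8, 45.8 and 45 CPM in t-VK12653, against 11.7, 15.3 and 13.1 CPM in Control. Inhibitors of cyclin-dependent kinases were also higher: Cdkn2c (p18) at 35.9 ± 9.65 CPM in t-VK12653 and 13.3 ± 4.4 CPM in Control, Cdkn2a at 11.9 ± 1.58 and 2.33 ± 0.607 CPM, and Cdkn1a (p21) at 18.4 ± 2.48 and 3.72 ± 2.13 CPM. Cdkn2a was not called without t-VK12653 replicate 1 (adjusted p = 0.054). Among D cyclins, Ccnd3 was at 21.9 ± 8.79 CPM in t-VK12653 and 79.1 ± 29.3 CPM in Control. Ccnd2 was at 1497, 1212, 1989 and 1158 CPM in t-VK12653, against 1060, 187 and 139 CPM in Control, so that 1 Control library lay close to the line (log2 fold change 1.74, SE 0.694, adjusted p = 0.0446). Its call was lost without any 1 of Control replicates 2 and 3 and t-VK12653 replicates 1, 2 and 3 (adjusted p = 0.0526 to 0.157) and in 5 other alternatives (0.0685 to 0.17), and without Control replicate 1 the log2 fold change was 3.24.

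Rb1, the retinoblastoma protein that holds E2F factors in check, was nearly absent from t-VK12653. It was at 0.215, 0.94, 0.339 and 0.274 CPM in t-VK12653, 8 reads in all, against 125, 106 and 136 CPM in Control (log2 fold change -7.95, SE 0.274, adjusted p = 1.78e-15; -8.73 without t-VK12653 replicate 2). Every VQ library held 99.4 to 301 CPM. Rb1 spans positions 73192858 to 73325951 of chromosome 14 in GRCm38. Its neighbours were looked up after this value was seen. Lpar6, a receptor gene inside the Rb1 locus, had 0 reads in t-VK12653, against 13.0, 8.87 and 7.62 CPM in Control. Rcbtb2, whose left end lies 54.1 kb before that of Rb1, was at 0.63 ± 0.473 CPM in t-VK12653 and 112 ± 28.2 CPM in Control, with 24.6 to 180 CPM in VQ libraries. Farther out, Cysltr2 was at 2.49 ± 1.42 CPM in t-VK12653 against 14.4 CPM in Control, but also low in VQ libraries (0 to 5.11 CPM). Itm2b, on the other side, was at 4056, 4347, 6559 and 7542 CPM in t-VK12653 against 905, 763 and 866 CPM in Control. VQ libraries held 750 to 4868 CPM of Itm2b. DNA was not measured.

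**Figure D4:**
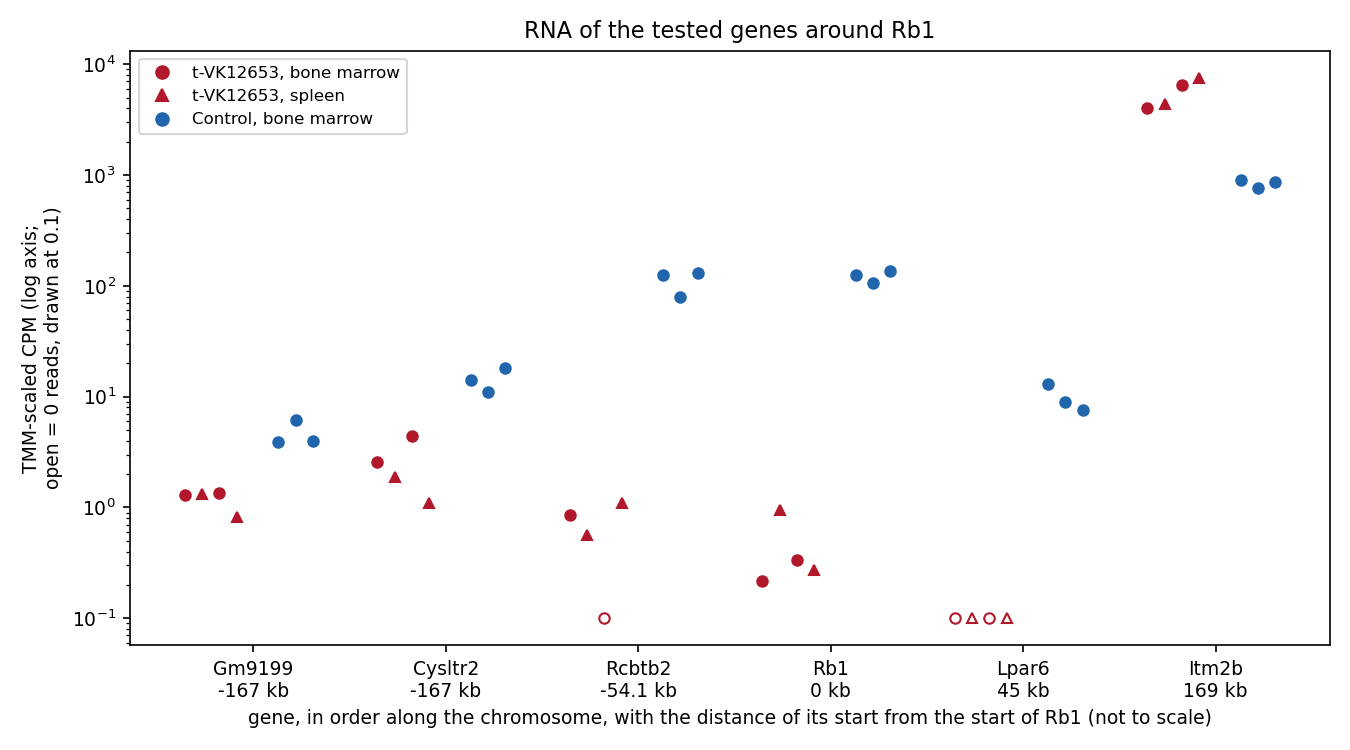
TMM-scaled CPM (log axis) of the 6 tested genes within 300 kb of the start of Rb1, in order along the chromosome, with t-VK12653 (red) left of Control (blue) and open symbols for 0 reads. Rcbtb2, Rb1 and Lpar6 lie at or below 1.1 CPM in all 4 t-VK12653 libraries, and Itm2b lies above Control.

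By a rule set after the values were seen, 26 genes were below 2 CPM in all 4 t-VK12653 libraries and at 5 CPM or more in all 19 others. Besides Rb1, Rcbtb2, St6gal1 and Egr1 they include Jak1, the kinase of interferon and IL-6 receptors, Ets2, a transcription factor, and Alkbh3, a DNA repair enzyme. Conversely 5 genes, Rfx6, Syt1, Kcnc2, 4933425L06Rik and Scrn1, were at 10 CPM or more in all 4 t-VK12653 libraries and below 1 CPM in all 19 others.

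More p53 targets were higher than lower. Of 19 tested 11 were higher and 2 lower (median 1.54). The median was 0.60 in bone marrow alone, 0.77 in sums per recipient number, 0.87 in spleen against Control and 0.80 without the filter on low counts, with 9 to 13 higher and 3 or 4 lower. Bbc3 (PUMA) and Pmaip1 (NOXA), BH3-only proteins that trigger apoptosis, were at 99.0 ± 10.8 and 194 ± 72.2 CPM in t-VK12653, against 22 ± 5.09 and 44.3 ± 14.4 CPM in Control. Zmat3, an RNA-binding p53 target, was at 112, 145, 117 and 94.0 CPM in t-VK12653, against 31.1, 22.5 and 21.5 CPM in Control (log2 fold change 2.29, SE 0.216, adjusted p = 2.38e-08). Eda2r, a death receptor, was at 13.6 ± 5.32 CPM in t-VK12653 with 0 reads in Control, at least 44.5-fold higher. Trp53 itself was at 46.4 ± 2.17 CPM in t-VK12653 and 35.6 ± 6.37 CPM in Control and was not called (adjusted p = 0.114). Mdm2, which degrades p53 and is also its target, was lower, at 84.8 ± 11.3 CPM in t-VK12653 and 165 ± 26.9 CPM in Control, and so was Fas, at 3.13 ± 1.42 and 16 ± 5.09 CPM.

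In the BCL2 family 6 of 15 tested genes were higher and 5 lower. Bcl2, which blocks apoptosis, was at 557, 637, 357 and 477 CPM in t-VK12653, against 158, 128 and 169 CPM in Control (log2 fold change 1.91, SE 0.405, adjusted p = 0.000804). The lowest t-VK12653 library was above every Control library, and the 16 VQ libraries held 0.131 to 83.7 CPM. Mcl1, the survival protein on which plasma cells depend, was lower, at 445 ± 29.5 CPM in t-VK12653 and 672 ± 89.4 CPM in Control. Of the death-promoting members, Bax was at 74.6 ± 10.4 CPM in t-VK12653 and 20.4 ± 2.62 CPM in Control, and Bcl2l11 (BIM) at 10.8 ± 2.31 and 48.7 ± 4.39 CPM.

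The core factors Irf4 and Prdm1 were not called, and several plasma cell products were lower. Irf4 was at 1394, 1469, 1706 and 1453 CPM in t-VK12653, against 1619, 857 and 1284 CPM in Control, and Prdm1 at 448, 563, 628 and 661 against 600, 341 and 585 CPM; neither was called and the groups overlapped. Without Control replicate 1, Irf4 was higher by 0.50 (adjusted p = 0.00424), and without the filter on low counts by 0.30 (0.0229). Xbp1, the factor of secretory capacity, differed by -0.59 ± 0.175 in log2 units (SE; adjusted p = 0.00684), and was not called without Control replicate 1 (adjusted p = 0.0508), in sums per recipient number (0.0948), in bone marrow alone (0.0629) or in spleen against Control (0.113). Of 17 plasma cell transcription factors 2 were higher and 8 lower (5 lower in bone marrow alone), and of 22 surface and secreted products 6 were higher and 13 lower (median -0.73, and -0.45 without Control replicate 3). Igj, the J chain that joins IgM and IgA, was at 3581, 5438, 6083 and 10478 CPM in t-VK12653, against 32911, 29954 and 57526 CPM in Control (log2 fold change -2.75, SE 0.541, adjusted p = 0.000485). Mzb1, a chaperone of IgM assembly, was at 14.8, 18.2, 16.3 and 14.3 CPM in t-VK12653, against 584, 525 and 744 CPM in Control. Cd93, which marks long-lived bone marrow plasma cells, had 1 read in t-VK12653, against 248, 253 and 327 CPM in Control, a ratio of 4639 (exact 95% counting interval 832 to 183300).

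Of 23 tested targets of myeloma drugs, on the surface and inside the cell, 12 were lower and 4 higher. Cd38, the antigen of daratumumab, had 0 reads in t-VK12653, against 21.4, 15.7 and 23.9 CPM in Control, at least 112-fold lower, and at most 2.16 CPM in the VQ libraries. Tnfrsf17 (BCMA) was at 16.2 to 23.9 CPM in t-VK12653 and 77.8 to 136 CPM in Control, and Slamf7, the antigen of elotuzumab, at 236 ± 35.6 and 754 ± 138 CPM. Besides Bcl2, the higher ones were Igf1r, a growth factor receptor, at 626 ± 101 CPM in t-VK12653 and 151 ± 18.4 CPM in Control, Hdac6, which lost its call in 3 alternatives (adjusted p = 0.0522 to 0.206), and Crbn, the cereblon target of lenalidomide, whose groups overlapped (log2 fold change 0.32, adjusted p = 0.0178). Crbn was not called without Control replicate 2 (adjusted p = 0.133) or t-VK12653 replicate 1 (0.0662), nor in 5 other alternatives, bone marrow alone, sums per recipient number and the TPM scale among them (0.0865 to 0.76).

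Of 42 ER genes of the secretory pathway 10 were higher and 14 lower, beside 28.8% higher and 28.1% lower among all genes. Sel1l, the adaptor of the HRD1 degradation complex, was at 8465, 10289, 9831 and 11345 CPM in t-VK12653, against 3442, 1767 and 2102 CPM in Control (log2 fold change 2.02, SE 0.227, adjusted p = 5.7e-07), above the 1384 to 5905 CPM of VQ libraries. Its partner Syvn1 (HRD1) was lower, at 229 ± 14.1 CPM in t-VK12653 and 483 ± 61.2 CPM in Control. The chaperones Hsp90b1 and Calr were at 5065 ± 598 and 1017 ± 153 CPM in t-VK12653, against 8250 ± 1393 and 2497 ± 259 CPM in Control, while P4hb, a disulfide isomerase, was at 1945 ± 317 and 944 ± 130 CPM. Dnajc3, a brake on the kinase PERK, was lower by 1.27, and Eif2ak3, which encodes PERK, was higher by 0.93. Of 32 proteasome subunits 15 were higher and 4 lower, 9 and 4 without Control replicate 2, and 5 and 8 on the TPM scale. Cytosolic and mitochondrial chaperones were higher for 15 of 26 and lower for 7; Hsp90ab1 was at 3515 ± 626 CPM in t-VK12653 and 1353 ± 58.7 CPM in Control, whereas the stress-induced Hspa1a had 0 reads against 22.7, 4.09 and 4.47 CPM.

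On the length-scaled TPM scale, the leading genes of the groups differed. B2m, the light chain of MHC class I, was first in t-VK12653 at 11816 ± 963 TPM, against 7621 ± 1509 TPM in Control, and Igj, at 5802 ± 2094 TPM in t-VK12653 and 46211 ± 17157 TPM in Control, was first in Control. Myc was among the top 10 in t-VK12653, at 5378 ± 577 TPM against 43.6 ± 14.7 TPM in Control. The neutrophil gene S100a9 was among the top 10 of Control, with 53.6 ± 64.6 TPM in t-VK12653 and 5984 ± 3775 TPM in Control.

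B cell identity genes were lower nearly throughout. Of 24 tested 21 were lower and 1 higher (median -4.53). Ms4a1 (CD20), Blk and Pax5 had 0 reads in t-VK12653, while Control held 43.8, 75.0 and 74.9 CPM of Ms4a1. Cd79a, of the B cell receptor, was at 0.653 ± 0.633 CPM in t-VK12653 and 246 ± 96.1 CPM in Control. The exception was Blnk, an adaptor of receptor signalling, at 383 ± 60.7 CPM in t-VK12653 and 208 ± 46.7 CPM in Control. Pax5, at 6.81, 36.8 and 2.63 CPM in Control, was highest in replicate 2, without which 17 B cell genes were lower. Replicate 2 had the highest neutrophil, monocyte, erythroid and T and NK cell sums of the Control libraries. The B cell precursor sum was highest in Control replicate 1, at 472 CPM, against 378 and 346 CPM in replicates 2 and 3. In bulk samples, fewer cells of a type and less RNA per cell cannot be told apart, and the part of other B cells in the Control values was not tested.

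MHC class I genes were higher and interferon response genes lower in the same libraries. Of 18 class I genes 13 were higher and 1 lower (median 0.87), and 14 were higher than the VQ mean. B2m was at 4422, 4629, 5587 and 6134 CPM in t-VK12653, against 3227, 2149 and 2720 CPM in Control (log2 fold change 0.94, SE 0.169, adjusted p = 7.93e-05), and at 270 to 2188 CPM in VQ libraries. The heavy chain H2-K1 was at 3682, 3359, 4565 and 3431 CPM in t-VK12653, against 1539, 1222 and 1170 CPM in Control. H2-D1 and H2-L were at 3620 ± 568 and 3211 ± 495 CPM in t-VK12653, against 826 ± 129 and 734 ± 113 CPM in Control; reads of such near-identical heavy chain genes may be split between them. Erap1, which trims peptides for class I, was higher by 1.60, and the peptide transporter Tap2 by 0.78. Nlrc5, the activator of class I genes, was at 65.8 ± 10.6 CPM in t-VK12653 and 91.7 ± 25.3 CPM in Control and was not called (adjusted p = 0.0963), but was lower without Control replicate 3 (0.0225), on the TPM scale (0.0161) and in the 7 libraries alone (0.0351).

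Class II genes were lower for 8 of 13 and not called for the other 5 (median -1.48). Without Control replicate 2 the median was -0.64, with 6 lower and 1 higher, and with the replicate block it was -0.94, with 6 lower. Replicate 2 had the highest neutrophil and monocyte sums of the Control libraries. Its dendritic cell sum was the lowest, at 492 CPM, against 555 and 557 CPM in replicates 1 and 3. H2-Ab1 was at 8.38, 9.03, 12.2 and 9.32 CPM in t-VK12653, against 169, 286 and 208 CPM in Control (log2 fold change -4.27, SE 0.409, adjusted p = 9.53e-08). Ciita, the class II activator, was at 2.07 ± 1.19 CPM in t-VK12653 and at 3.57, 47.4 and 2.10 CPM in Control, high in replicate 2, without which it was not called (adjusted p = 0.871), nor was it in 4 other alternatives (0.0515 to 0.175). Cd74, the invariant chain, was at 3833, 3910, 5113 and 5502 CPM in t-VK12653, against 3940, 2776 and 3033 CPM in Control. It was not called (log2 fold change 0.54, SE 0.352, adjusted p = 0.209). Without the filter on low counts it was (2.1e-06), although the groups overlapped. VQ libraries ranged from 3.80 to 3192 CPM of Cd74.

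Of 47 tested interferon response genes 36 were lower and 2 higher (median -2.27), with the groups apart for all 36. Neutrophil and monocyte markers were also lower in t-VK12653, and the part of those cells in the interferon genes was not tested. Irf8, a factor of B and myeloid cells, had 6 reads in t-VK12653, against 114, 133 and 107 CPM in Control. Stat2, which carries the interferon signal, was at 14.7 ± 1.92 CPM in t-VK12653 and 48.9 ± 0.75 CPM in Control. Trim30a, an induced antiviral gene, was at 2.36, 1.69, 2.71 and 0 CPM in t-VK12653, against 48.3, 54.2 and 48.9 CPM in Control (log2 fold change -4.95, SE 0.401, adjusted p = 3.4e-09). Gbp7, a guanylate-binding protein, was at 12.7, 9.97, 4.41 and 0.548 CPM in t-VK12653, against 118, 37.5 and 23.1 CPM in Control (log2 fold change -2.70, SE 0.606, adjusted p = 0.00139; -1.71 without Control replicate 1). The receptors differed: Ifnar2 and Ifngr2 were higher, by 1.13 and 0.64, and Ifngr1 was lower by 1.80. Ifngr2 was not called without Control replicate 1 or 3 or t-VK12653 replicate 1 (adjusted p = 0.0545 to 0.165), nor in 5 other alternatives (0.102 to 0.24). Jak1, which serves both receptors, was at 1.5, 0.188, 0.339 and 0.274 CPM in t-VK12653, against 170, 268 and 229 CPM in Control (log2 fold change -8.37, SE 0.297, adjusted p = 8.29e-15; -9.55 without t-VK12653 replicate 1). Every VQ library held at least 9.13 CPM of Jak1.

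**Figure D5:**
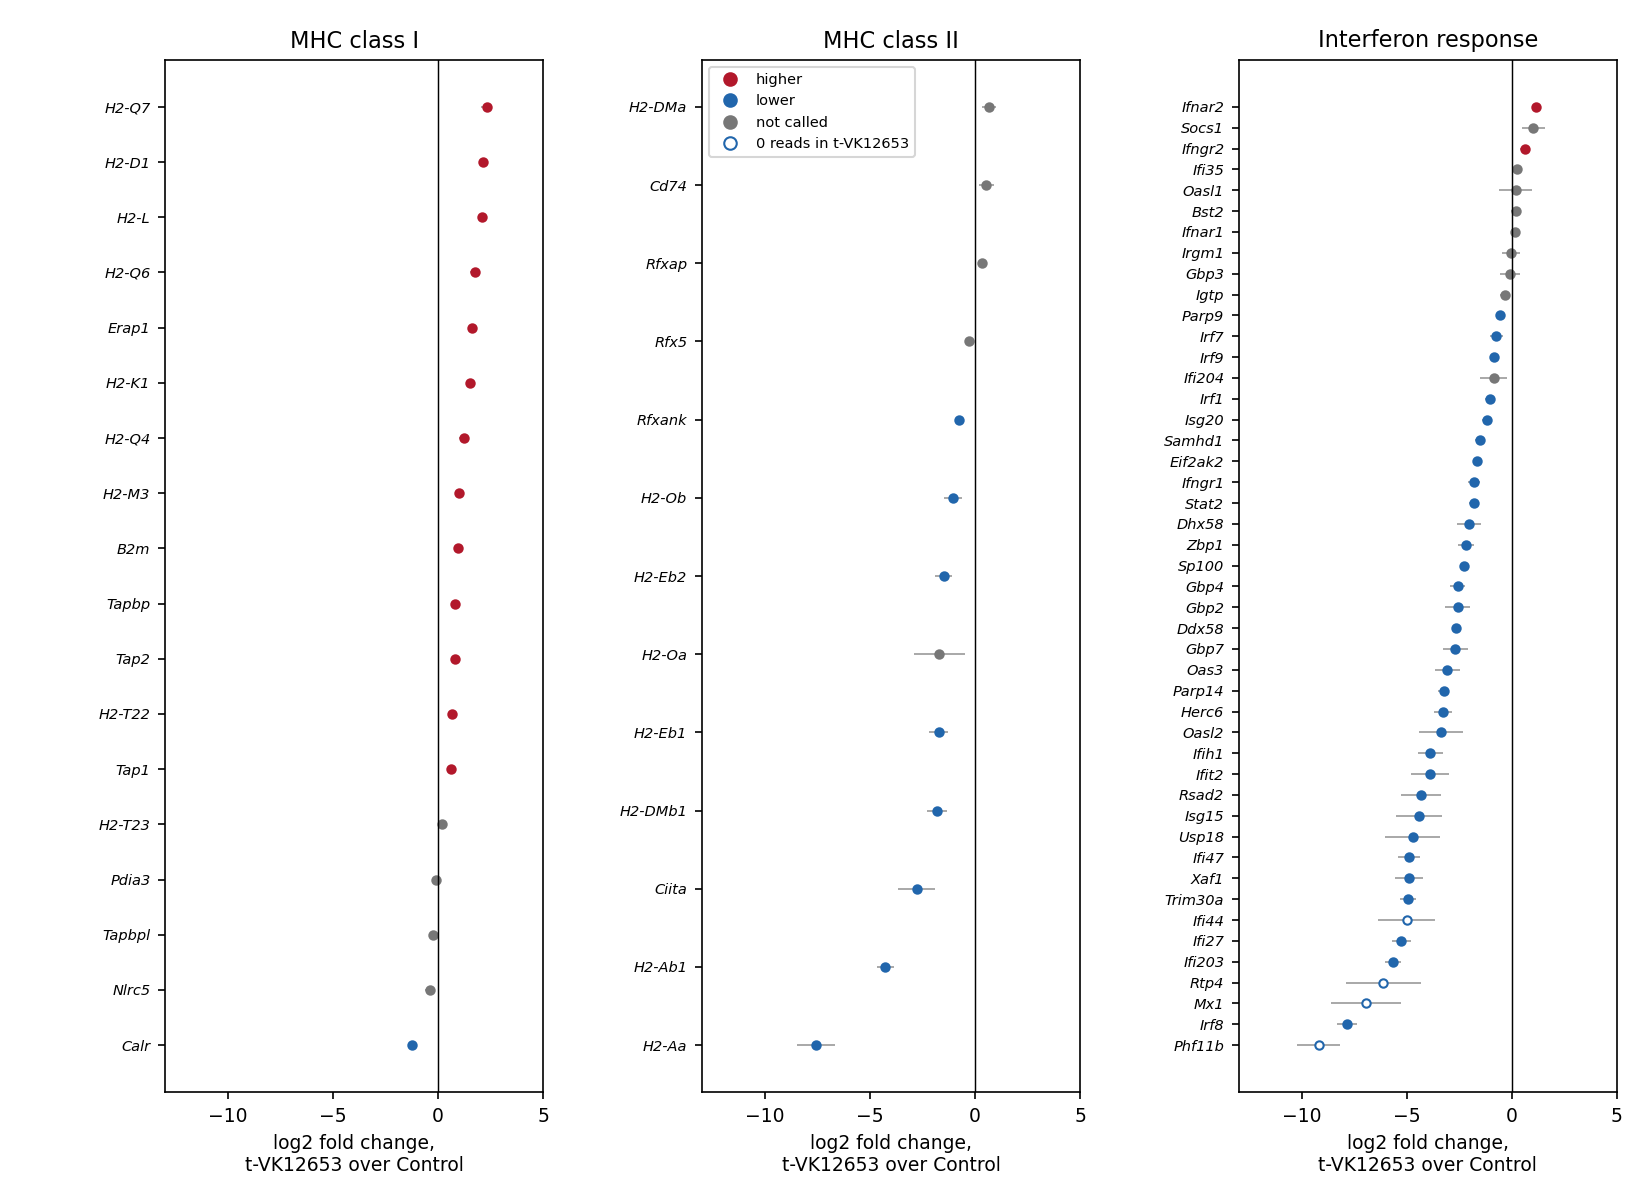
Log2 fold change of t-VK12653 over Control, with its SE, for tested genes of MHC class I (18 drawn), MHC class II (13) and the interferon response (46); red is higher, blue lower, grey not called. Open symbols had 0 reads in t-VK12653, so that their fitted value depends on the fit. Of the class I genes 13 of 18 are called higher, and of the interferon genes drawn 35 of 46 are called lower.

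Some promoters of both groups hold the same letters. B2m is shown beside Stat2, Gbp7 and Trim30a, which were picked among the genes that hold them. The motif searched, the core of the element bound by interferon-activated factors, is TTTC, any 2 bases and TTTC again, on both strands, so that it reads GAAA, any 2 bases and GAAA from the other. The sequences are again the 250 bases before the start, from RefSeq, build GRCm38.p6. They lie at chr2:122147437-122147686, plus strand, at chr10:128270248-128270497, plus strand, at chr3:142530086-142530335, plus strand, and at chr7:104465194-104465443, minus strand.
B2m: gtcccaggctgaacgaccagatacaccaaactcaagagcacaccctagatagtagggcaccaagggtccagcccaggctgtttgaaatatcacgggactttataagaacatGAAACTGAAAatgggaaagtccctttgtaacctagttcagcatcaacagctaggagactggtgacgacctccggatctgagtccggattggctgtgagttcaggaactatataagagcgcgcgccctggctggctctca
Stat2: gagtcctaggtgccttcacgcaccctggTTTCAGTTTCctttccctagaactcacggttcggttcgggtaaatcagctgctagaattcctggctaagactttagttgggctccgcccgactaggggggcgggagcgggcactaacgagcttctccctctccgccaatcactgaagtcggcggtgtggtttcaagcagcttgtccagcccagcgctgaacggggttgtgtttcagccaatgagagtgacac
Gbp7: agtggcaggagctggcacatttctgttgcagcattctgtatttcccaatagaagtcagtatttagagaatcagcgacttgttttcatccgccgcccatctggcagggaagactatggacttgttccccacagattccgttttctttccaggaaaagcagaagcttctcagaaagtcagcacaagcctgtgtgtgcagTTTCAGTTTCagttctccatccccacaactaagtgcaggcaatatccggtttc
Trim30a: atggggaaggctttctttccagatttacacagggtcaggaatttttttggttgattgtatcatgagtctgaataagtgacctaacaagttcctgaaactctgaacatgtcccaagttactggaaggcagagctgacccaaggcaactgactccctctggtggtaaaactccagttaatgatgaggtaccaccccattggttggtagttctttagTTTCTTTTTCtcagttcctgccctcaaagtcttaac
In windows of 250 bases before to 50 after a start, the motif was found in 17 of 36 interferon response genes with an entry (47.2%), in 4 of 14 class I genes (28.6%), in 0 of 9 class II genes, in 5 of 31 ribosomal protein genes (16.1%), in 3.75% of tested genes and in 3.44% of all windows. B2m, which was higher, and Trim30a, which was lower, each hold 1 copy in the bases shown. No binding was measured.

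Among NF-kB genes, 1 kinase lay far above Control. Map3k14 (NIK), which starts the non-canonical NF-kB pathway and is altered in some human myelomas, was at 539, 629, 473 and 488 CPM in t-VK12653, against 21.4, 32.7 and 22.6 CPM in Control (log2 fold change 4.28, SE 0.175, adjusted p = 2.08e-14), and at 5.04 to 13.9 CPM in the VQ libraries. Among its partners, Nfkb2 was at 175, 179, 79.7 and 87.5 CPM in t-VK12653, against 123, 147 and 166 CPM in Control, and was not called (adjusted p = 0.559). Traf3, which degrades NIK, was at 88.0 ± 10.4 CPM in t-VK12653 and 86.2 ± 3.88 CPM in Control (adjusted p = 0.831). Of 23 genes of the pathway 2 were higher and 8 lower, among them Nfkb1, lower by 0.99, and Cd83, an activation marker with 4 reads in t-VK12653 against 82.4, 35.8 and 36.8 CPM in Control. Against the VQ mean 14 of the 23 were higher and 1 lower.

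In the IL-6 pathway, a growth signal of plasma cells, 4 of 19 genes were higher and 8 lower. The receptor chains were both higher: Il6ra at 126 ± 15.2 CPM in t-VK12653 and 53.3 ± 5.63 CPM in Control, and Il6st (gp130) at 463, 524, 462 and 837 CPM against 221, 131 and 185 CPM. Stat3 was at 226 ± 31.1 CPM in t-VK12653 and 184 ± 9.38 CPM in Control and was not called (adjusted p = 0.158). Ptpn6, the phosphatase SHP-1, was lower by 2.64.

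Of 17 tested genes downstream of ERK 6 were lower and 2 higher, beside 28.1% lower and 28.8% higher among all genes. Without the filter on low counts, 10 of 19 were lower and 3 higher. Dusp6, an ERK phosphatase, was at 8.60, 6.02, 8.82 and 4.66 CPM in t-VK12653, against 18.8, 37.9 and 15.2 CPM in Control, and was not called without Control replicate 2 (adjusted p = 0.0528). Spry1 and Phlda1 were higher, Phlda1 at 84.5, 91.8, 215 and 110 CPM in t-VK12653, against 23.7, 16 and 6.31 CPM in Control. Among 23 immediate early genes 10 were lower and 1 higher (17 lower and 5 higher without the filter). Fos was at 187, 197, 2155 and 631 CPM in t-VK12653, against 3104, 852 and 1042 CPM in Control. It was not called (adjusted p = 0.463), but was in spleen against Control (0.0324). Without the filter its adjusted p was 2.55e-14 although the groups overlapped, so that value does not measure the spread between these libraries. For Fos, t-VK12653 replicate 3 and Control replicate 1 were the high libraries of their groups, as for Jun (2644 and 4621 CPM). Klf2, which keeps lymphocytes at rest, had 11 reads in t-VK12653, against 422, 189 and 171 CPM in Control.

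Homing and checkpoint genes were lower in the main. Of 26 homing and adhesion genes 20 were lower and 1 higher (median -2.87), and of 15 checkpoint genes 10 were lower and 2 higher (median -3.81). Cxcr4, which holds plasma cells in bone marrow, was the higher one, at 195, 181, 178 and 117 CPM in t-VK12653, against 103, 128 and 94.6 CPM in Control (log2 fold change 0.64, SE 0.181, adjusted p = 0.00507), with 1 spleen library inside the Control range. Cxcr4 was not called in spleen against Control (adjusted p = 0.133) or on the TPM scale (0.195). Itga4, the integrin chain that binds VCAM-1, was lower by 0.50 (not called without Control replicate 3, adjusted p = 0.0915, or in bone marrow alone, 0.179), and Cd28, a costimulatory receptor of long-lived plasma cells, was at 3.50 ± 2.60 CPM in t-VK12653 and 102 ± 23.2 CPM in Control. Itgam, Ccr1 and Ccr2 are also carried by myeloid cells or lymphocytes, whose marker sums were higher in Control; the part of those cells was not tested. Pvr, the ligand of TIGIT and CD226, was higher, at 83.8, 67.9, 93.3 and 93.8 CPM in t-VK12653, against 17.8, 13.6 and 11.8 CPM in Control, and Tigit itself was lower by 4.01. Cd274 (PD-L1) was at 75.5 ± 13.2 CPM in t-VK12653 and 126 ± 51.6 CPM in Control and was not called (adjusted p = 0.0542), but was lower without Control replicate 2 (0.00831) or t-VK12653 replicate 3 (0.0461) and in 7 other alternatives (1.37e-05 to 0.0449).

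Of 25 chromatin regulators 6 were higher and 9 lower, beside 28.8% higher and 28.1% lower among all genes. Dnmt3a, a DNA methyltransferase, was at 3.44, 2.82, 10.5 and 8.5 CPM in t-VK12653, against 53.8, 52.9 and 64.1 CPM in Control (log2 fold change -3.28, SE 0.33, adjusted p = 8.15e-08), and Tet2, which oxidises methylcytosine, was lower by 1.27. Phf1, an accessory subunit of the Polycomb complex PRC2, was at 11.8 ± 1.33 CPM in t-VK12653 and 74.2 ± 5.77 CPM in Control, whereas its core subunits Suz12 and Eed were higher by 0.51 and 0.63. Suz12 was not called on the TPM scale (adjusted p = 0.115) and Eed not in spleen against Control (0.0928). The catalytic subunit Ezh2 was not called (adjusted p = 0.502). Of the let-7 pathway 8 of 17 tested genes were higher and 3 lower (3 higher in bone marrow alone). Igf2bp2, an RNA-binding protein that let-7 represses, was at 18.4 ± 2.72 CPM in t-VK12653 and 4.6 ± 2.28 CPM in Control, and the higher members also include Ccnd2 and Nras. Of 30 germline and cancer-testis genes 12 were tested, of which Maged1, Nxf3, Lin28b and Xlr3a were higher and Tdrd1 and Xlr4a lower. Maged1, of the melanoma antigen family, was at 179 ± 65.9 CPM in t-VK12653 and 43.1 ± 11.4 CPM in Control. Tdrd1 rests on few reads and was not called without Control replicate 2 (adjusted p = 0.176) or without any 1 of Control replicate 3 and the 4 t-VK12653 libraries (0.058 to 0.0692), nor with DESeq2 (0.0737) or on the TPM scale (0.466).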

How the data were processed

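RNA of sorted cells was sequenced with a SMARTer stranded total RNA kit, per the labels' protocols. The deposited tables hold the authors' count, FPKM and TPM per gene, 1 table per sample. The submitters' processing notes name STAR, featureCounts and DESeq2, and GRCm38, also called mm10, as the build; neither they nor the labels state versions, annotation or strand setting. Deposited counts were tested, deposited TPM was used for levels between genes and for 1 alternative, and the authors' FPKM was not used.

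Counts of all 23 libraries were fitted with edgeR 4.0.16 in R 4.3.3 (robust quasi-likelihood test, TMM scaling, filterByExpr with minimum counts of 10 and 15, terms for group and tissue), and p-values were Benjamini-Hochberg adjusted over 12867 genes and called at 0.05. Alternatives were DESeq2 1.42.0, limma 3.58.1 on log2(TPM + 1), RLE scaling, no filter, a replicate block, fewer libraries, sums per recipient number, and removal of abundant non-coding RNA. Depth was 2685579 to 5776168 counts per library, and counts of replicates differed by more than sampling noise. The t-VK12653 table names hold fewer recipient numbers than libraries, yet its libraries entered the fit as separate replicates. Nothing says that Control replicates are separate animals. The spread behind the p-values is that between libraries within groups, estimated over all 23 libraries with the VQ lines included, and not that between animals. The genes named were the genes of the genotypes, the 12 highest and 12 lowest fold changes, the 10 highest by TPM per group, and members of the lists; some genes the rule names are not reported here. The members and lists were chosen with earlier results of these data known.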

Additional observations from a re-analysis of the deposited data

Results flagged for a closer look

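Of 125 named genes with a mean of at least 5 CPM in t-VK12653, 6 had 1 of the 4 t-VK12653 libraries far from the other 3, and chance alone flags about 1 in 20 such groups. Odc1 was at 147 CPM in replicate 3, against a median of 61.1 CPM over the 4 libraries. Il6st was at 837 CPM in replicate 4, with a median of 493 CPM. Replicate 2 was high for Mcl1 (489 CPM, median 433 CPM), for Dnajc3 (315 CPM, median 296 CPM) and for Phf1 (13.7 CPM, median 11.2 CPM). Nxf3 was low in replicate 3, at 36 CPM with a median of 42.9 CPM. Leaving out that t-VK12653 library ended the call of none of these 6 genes.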

How the results depend on the processing

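Over the alternatives, 2506 to 3813 genes were higher and 2794 to 4885 lower in t-VK12653 than in Control, and both counts stayed within 1.5 times 3700 and 3620. Leaving out 1 library gave 3375 to 3677 higher and 3374 to 3571 lower. Without the filter, adjusted p-values were very small for some genes with overlapping groups, such as Fos and Cd74. For such genes the p-values of that setting do not measure the spread between libraries. Library numbers do not pair the samples, since deviations of same-numbered libraries correlated at -0.0295, -0.0583 and -0.0836; with the replicate block 3608 genes were higher and 3539 lower, and Xist, Ccnd2 and Ciita were not called (adjusted p = 0.0544, 0.0714 and 0.175). A few genes that were not called changed sign: on log2(TPM + 1), where all genes shifted by -0.266, Prdm1 was at -0.17, Trp53 at -0.0216, Stat3 at -0.0886 and Traf3 at -0.24. Traf3 was also at -0.0243 with DESeq2, at -0.0196 with RLE scaling, at -0.15 for spleen against Control marrow, at -0.0271 in the 7 libraries alone and at -0.00509 without abundant non-coding RNA. With 1 library left out, the range was -0.18 to 0.21 for Prdm1, -0.59 to 0.0158 for Nfkb2 and -0.0404 to 0.0774 for Traf3. Xist, which was called lower in the main fit (-6.55), ranged from -7.17 to 0.44. The 0.44 was without Control replicate 1, on which its Control level rests. The cause was not tested. On log2(TPM + 1) some list medians were nearer 0, at -2.81 for B cell identity, -1.76 for homing and -2.09 for checkpoints. So were those of oxidative phosphorylation (0.34), translation factors (0.41) and nucleotide and polyamine genes (0.25). Others lay farther below 0, at -1.93 for immediate early genes (-1.32 in the main fit). Plasma cell surface and secreted products were at -1.01 (-0.73 in the main fit) and NF-kB genes at -0.61 (-0.28). Proteasome genes were higher for 7 of the list in bone marrow alone and 5 on the TPM scale, against 15 in the fit of all libraries. Depth limits genes with a few reads, whose fitted folds move with single reads.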
